A study of Mus musculus with 22 samples.

Results

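Clone C43 is 1 of 4 GFP reporter clones of mpkCCD cells, immortalised mouse cells of the renal cortical collecting duct, a segment in which vasopressin sets water reabsorption. It supplies 4 of the 22 RNA-seq libraries of the series: 2 from the GFP-negative and 2 from the GFP-positive fraction, all from cells given dDAVP, a synthetic agonist of the vasopressin V2 receptor. They were compared with the 12 libraries of clones C1, C11 and C50, which carry a GFP reporter as well, were given dDAVP as well and were collected as the same fractions, with 2 libraries per clone and fraction. The other 6 libraries come from unsorted wild-type (WT) cells, 3 with vehicle and 3 with dDAVP, and are quoted only for reference. The growth protocol names several dDAVP doses and times without tying them to a library. Each reporter line is a single clone, so a difference between C43 and the rest rests on 1 clone against 3, and the p-values below measure the spread between libraries, not between independently made C43 lines.

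Values are TPM, transcript levels scaled by length and to a fixed total per library, which keep no read depth. Differences are given on the log2(TPM + 1) scale as C43 minus the other clones, with the GFP fraction as a covariate, for the 13113 genes with a mean of at least 1 TPM over the 16 clone libraries. A gene was called when its limma adjusted p was under 0.05, and was beyond the range when all 4 C43 libraries lay above, or all 4 below, all 12 others. The median difference over all genes tested was -0.02. In bulk RNA, fewer cells that express a gene and less of its RNA per cell cannot be told apart.

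Interferons are secreted alarm proteins of viral infection. They bind receptors found on most cells, including tubule epithelium, and act through JAK kinases and transcription factors. These bind short promoter elements and switch on interferon-stimulated genes, many of which degrade, trap or sense foreign RNA, and many epithelial cells keep a low level of these transcripts without infection.

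C43 differed from the other clones in 185 genes, 1.41% of those tested. Of these, 113 (0.862%) were higher and 72 (0.549%) lower in C43. All 4 C43 libraries lay beyond the 12 others in 143 genes (1.09%), 95 above (0.724%) and 48 below (0.366%). Of the 95, 14 had a mean under 1 TPM in the other clones, and of the 48, 10 had a C43 mean under 1 TPM. These were tested only through the group where they are high. Of the 113 higher genes, 17 had a mean under 1 TPM in the other clones and so passed the minimum of 1 TPM only through C43, and of the 72 lower genes 11 had a C43 mean under 1 TPM and passed only through the other clones. Such a gene had to differ, and its p-value is no support. The balance of higher over lower calls turned in 2 settings: 61.1% of calls were higher, but 38.5% without GFP-negative C50 replicate 1 and 36.7% without clone C50. Both criteria were met by 94 genes (0.717%), 61 above and 33 below. Of the 61, 13 were tested only through C43. Largest rises and falls are ranked here among genes that met both criteria, had a mean of at least 5 TPM and no provisional symbol. In that ranking the largest rises were those of Ifi27l2a, Lurap1l, Apol9a and Nectin3, and the largest falls those of Lypd6b, Degs2, Rab15 and Ncam1. As single libraries were left out in turn, 54 to 924 genes were called, and 41 to 268 met both criteria. The 94 became 57 without GFP-negative C43 replicate 2, 41 and 44 without GFP-positive C43 replicates 1 and 2, and 268 without GFP-negative C50 replicate 1. With the libraries of each clone averaged (1 clone against 3) limma called 0 (339 at an unadjusted p under 0.05). With each of the other clones set against its remaining 3 in the same way, 2702 genes were called for C1, 130 for C11 and 362 for C50.

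Ifi27l2a, an interferon-inducible gene of the Ifi27 family, had the largest rise. Its C43 levels were 60.1 and 54.4 TPM in the GFP-negative and 109 and 94.5 TPM in the GFP-positive libraries, while the 12 others ran from 0.6 through a median of 1.64 to 3.61 TPM. The groups were far apart in both fractions, with a C43 difference of 4.94 ± 0.25 (SE; adjusted p = 3.49e-09). Unsorted dDAVP-treated WT cells were at 2.07 ± 0.31 TPM (SD, n = 3), within the range of the other clones. Its neighbour Ifi27 was already abundant elsewhere, at 63.8 to 131 TPM, and reached 202, 203, 328 and 335 TPM in C43 (difference 1.39 ± 0.15 SE, adjusted p = 8.42e-05).

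Apol9a, an interferon-inducible apolipoprotein L, stood at 16.3, 16.1, 24.3 and 24.6 TPM in C43 against 0.4 to 5.88 TPM elsewhere (median 1.79). The highest values outside C43 were those of clone C11. Lgals3bp, a secreted glycoprotein that binds galectin-3, stood at 21.8, 18.8, 31.1 and 49.7 TPM against 2.56 to 6.84 TPM. Their differences were 2.81 ± 0.32 (SE; adjusted p = 0.000125) and 2.62 ± 0.21 (adjusted p = 1.68e-06). Lgals9, which encodes galectin-9, was the most abundant of the largest rises after Ifi27: 144 and 154 TPM in the GFP-negative and 355 and 398 TPM in the GFP-positive C43 libraries, against 27.9 to 136 TPM (difference 2.13 ± 0.26 SE, adjusted p = 0.000226). The lowest C43 library was just above the highest C11 library, so the separation of Lgals9 was narrow once fractions were mixed.

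Further genes of this ranking were Ifit1bl1, a relative of the Ifit RNA-binding proteins, Rsad2, which encodes the antiviral enzyme viperin, and Rtp4, an interferon-inducible transmembrane protein. Ifit1bl1 was at 7.26, 8.39, 19.8 and 22.7 TPM in C43 and 0.51 to 4.16 TPM elsewhere (difference 2.40). Rsad2 was at 10.4, 12.8, 15 and 19.8 TPM against 1.07 to 6.46 TPM (difference 1.86). Rtp4 was at 45.7, 47.6, 80.6 and 87.1 TPM against 7.62 to 37.5 TPM (difference 1.85). In all 3 the C43 libraries lay above every other library, with adjusted p of 0.000252, 0.0031 and 0.0108 in the same limma fit. Of the 12 largest rises, 2 (Rsad2 and Ifi27) are on the interferon response list described next. Oas2 of that list had a larger difference than Rsad2, at 2.26. Its mean of 3.28 TPM over the 16 libraries was under the minimum for ranking. Airn (difference 2.16) and Hba-a1 (difference 2.01) were left out by the same minimum. The Rtp4 call was lost without either GFP-positive C43 library (adjusted p 0.0749 and 0.0754).

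**Figure D1:**
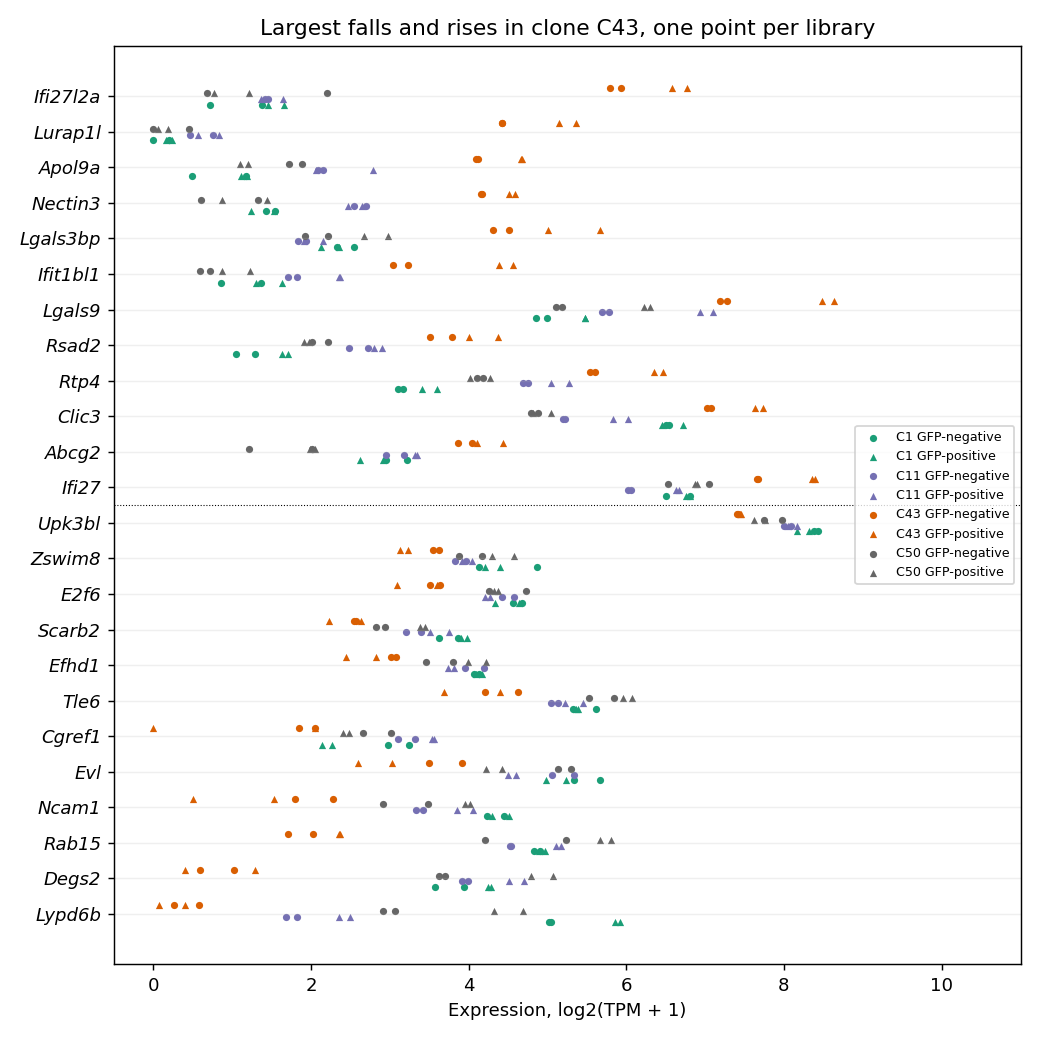
Level of the 12 largest rises (above the dotted line) and 12 largest falls (below it) on the log2(TPM + 1) scale, 1 point per library, coloured by clone, with circles for GFP-negative and triangles for GFP-positive libraries. Every gene shown was called and beyond the range by the rule that chose it; the gap is widest for Ifi27l2a and Lurap1l and narrowest for genes such as Lgals9 and Cgref1.

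Of the 34 genes on an interferon response list, 33 were in the table and 28 were tested. In C43, 10 were called higher, 35.7% against 0.862% of all genes tested, and 0 were called lower. The median difference of the 28 was 0.96, and 27 of the 28 were above 0. At an unadjusted p under 0.05, 22 were higher (78.6%) and 0 lower, against 6.48% higher and 6.53% lower of all genes tested. The list's summed level was 921 to 1275 TPM in the C43 libraries and 496 to 779 TPM in the 12 others, so the sums did not overlap. These counts describe the list, which was drawn up with earlier results known and is not independent evidence of its direction. As single libraries were left out in turn, 6 to 15 members were called higher, the fewest without either GFP-positive C43 library.

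The called members were Oas2, Oas1a and Oas1g, which make the messenger that activates RNase L; Rsad2 and its neighbour Cmpk2, a nucleotide kinase; Gbp2, a guanylate-binding GTPase; Ifi27; Ifit1, which binds RNA lacking host cap marks; Mx2, a dynamin-like GTPase; and Bst2, which tethers budding virus. Oas2 was at 6.49, 6.89, 14.1 and 10.7 TPM in C43 and 0.02 to 2.53 TPM elsewhere (difference 2.26 ± 0.20 SE, adjusted p = 8.48e-06), a clear separation. Gbp2 was at 5.15, 4.92, 8.89 and 5.93 TPM against 0.88 to 2.76 TPM (difference 1.43 ± 0.20 SE, adjusted p = 0.000701). Cmpk2 was at 9.45, 4.95, 7.67 and 6.62 TPM against 0.55 to 3.44 TPM (difference 1.60 ± 0.28 SE, adjusted p = 0.00637), and its adjusted p was 0.0513 without GFP-positive C43 replicate 1. Oas1g was lower in level, at 3.4, 4.34, 2.42 and 4.98 TPM against 0 to 2.39 TPM, with a difference of 1.55 ± 0.29 (SE), and its call was lost without GFP-negative C43 replicate 2 or GFP-positive C43 replicate 2 (adjusted p 0.0612 and 0.0927). Oas1g and Mx2, 2 of the 10 called members, reached the minimum of 1 TPM only through C43. The Oas1 genes are close copies of each other, and how reads were shared among them is uncertain.

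Ifit1 and Bst2 were called although their ranges overlapped the other clones. Ifit1 was at 88.5, 92.7, 153 and 148 TPM in C43 and 29.6 to 103 TPM elsewhere (difference 1.08 ± 0.21 SE, adjusted p = 0.0182). Bst2 was at 79.6 and 77.6 TPM in the GFP-negative and 54.3 and 51.8 TPM in the GFP-positive C43 libraries, against 26.6 to 55.9 TPM (difference 0.76 ± 0.13 SE, adjusted p = 0.00554). Mx2 and Oas1a lay above the range, at 1.69 to 3.76 TPM against 0.27 to 1.55 TPM and at 9.47 to 15.2 TPM against 2.3 to 8.51 TPM. A further 3 members lay above the range but missed the threshold: Ifi44 (difference 2.48, adjusted p = 0.0506), the deubiquitinase-like Usp18 (1.60, adjusted p = 0.0875) and Ifit3b (1.23, adjusted p = 0.108). Ifi44 shows how the other clones differed among themselves: means per fraction were 5.02 and 3.83 TPM in C1, 8.1 and 11.3 TPM in C11 and 0.535 and 0.56 TPM in C50, against 16.4 to 33.4 TPM over the C43 libraries. Isg15, a ubiquitin-like modifier often used as a marker of the response, was at 80.4 to 109 TPM in C43 and 44 to 86.6 TPM elsewhere (difference 0.49, adjusted p = 0.163).

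**Figure D2:**
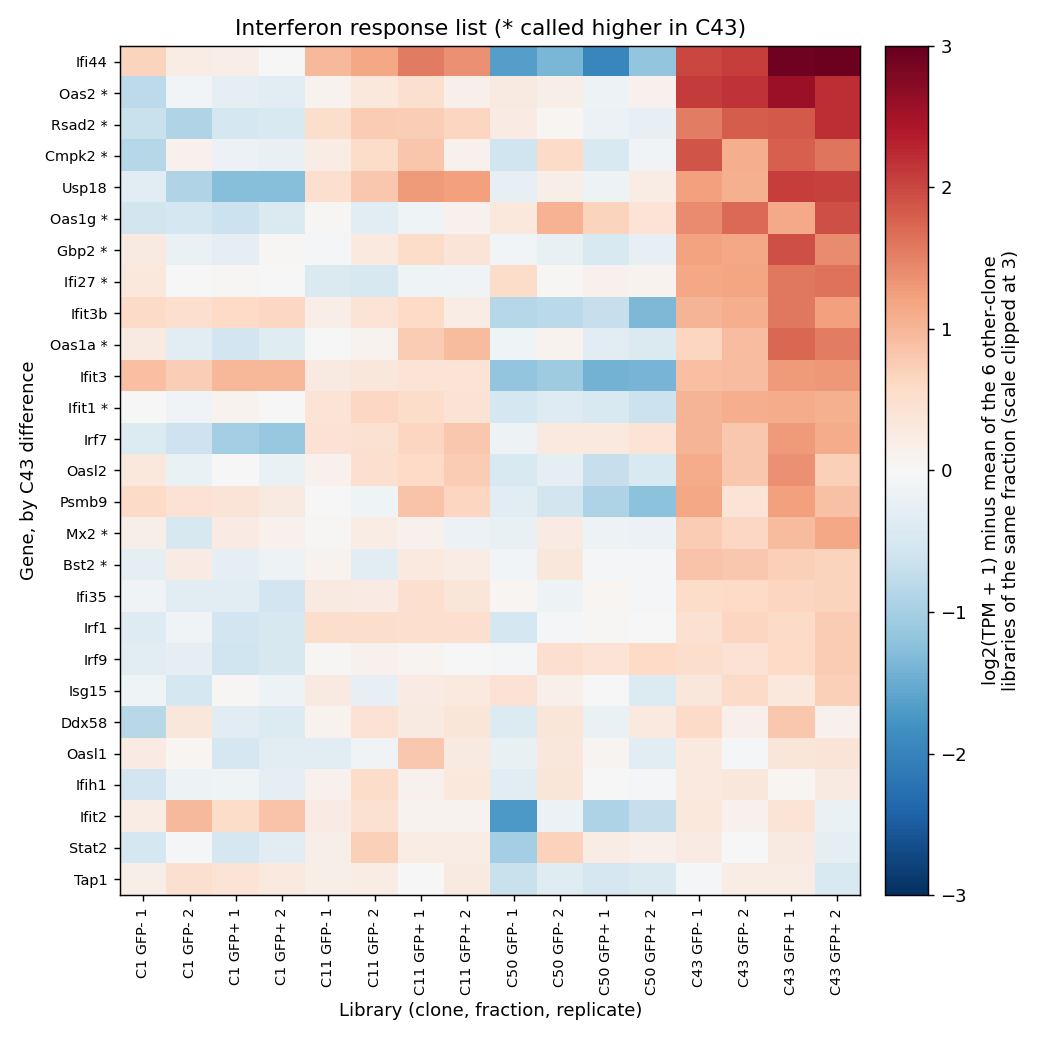
Tested members of the interferon response list (27 rows, by C43 difference) in each of the 16 clone libraries (columns). Colour is log2(TPM + 1) minus the mean of the 6 libraries of the other clones in the same fraction, clipped at 3; stars mark the 10 members called higher in C43, whose 4 libraries are the rightmost columns.

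The upstream components of the pathway were described by a second list of 39 genes (ligands, receptors, kinases, transcription factors and RNA or DNA sensors), added after values had been seen. Of its 29 tested genes, 1 was called higher and 0 lower in C43, 3.45% against 0.862% higher over all genes, with a median difference of 0.12; at an unadjusted p under 0.05, 8 were higher (27.6% against 6.48% of all genes) and 0 lower. The called gene was Dhx58, a regulator of RNA sensing, at 4.59, 4.73, 10.1 and 12.7 TPM against 1.51 to 6.82 TPM (difference 1.08 ± 0.24 SE, adjusted p = 0.0342). Among transcription factors, Irf7 had a difference of 1.06 (adjusted p = 0.129) and Irf9 of 0.58 (adjusted p = 0.174). The receptor subunits Ifnar1 and Ifnar2 differed by 0.12 and 0.19 (adjusted p 0.861 and 0.553). The medians of the response list and the signalling list, 0.96 and 0.12, were not tested against each other.

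Promoter windows were looked up for the 12 largest rises, because they bear on whether these genes share the letters of the interferon-stimulated response element. RefSeq windows (GRCm38.p6, 250 bases before to 50 after the start) were found for 9 of the 12. The letters GAAANNGAAA, on either strand (TTTCNNTTTC), occurred in 5 of the 9: Lurap1l, Apol9a, Ifit1bl1, Lgals9 and Rsad2. The windows of Nectin3, Lgals3bp, Clic3 and Abcg2 did not hold them. Over all genes with a window, 1079 of 27025 (3.99%) held the letters. Only 83 of the 113 genes called higher (73.5%) and 9 of the 12 largest rises had a window, under the 80% needed for such a comparison, so neither set is read against that share; the check is void. The 150 bases before the start of the 5 genes are printed 5′ to 3′ on the gene's own strand, with the matching letters in capitals; they are chr12:26456453-26456602 (minus strand) for Rsad2, chr15:77411081-77411230 (minus) for Apol9a, chr11:78984925-78985074 (minus) for Lgals9, chr19:34601969-34602118 (minus) for Ifit1bl1 and chr4:80910536-80910685 (plus) for Lurap1l.
Rsad2: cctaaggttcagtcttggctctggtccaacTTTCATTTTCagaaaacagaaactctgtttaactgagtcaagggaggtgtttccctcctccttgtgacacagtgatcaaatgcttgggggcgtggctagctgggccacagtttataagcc
Apol9a: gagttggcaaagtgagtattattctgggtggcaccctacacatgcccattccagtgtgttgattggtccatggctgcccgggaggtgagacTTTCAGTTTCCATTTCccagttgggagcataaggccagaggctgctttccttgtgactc
Lgals9: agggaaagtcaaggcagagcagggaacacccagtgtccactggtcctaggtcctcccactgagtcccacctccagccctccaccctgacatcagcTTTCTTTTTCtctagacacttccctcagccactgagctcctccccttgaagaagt
Ifit1bl1: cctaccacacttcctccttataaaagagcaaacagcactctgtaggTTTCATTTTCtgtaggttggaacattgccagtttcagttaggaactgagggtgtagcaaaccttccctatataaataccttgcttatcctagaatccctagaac
Lurap1l: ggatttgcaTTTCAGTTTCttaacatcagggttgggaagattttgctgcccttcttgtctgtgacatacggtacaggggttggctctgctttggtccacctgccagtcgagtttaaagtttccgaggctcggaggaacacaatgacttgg
The first matching base lay 120 bases before the start in Rsad2, 55 in Lgals9, 104 in Ifit1bl1 and 141 in Lurap1l. Apol9a held a pair of overlapping matches, at 59 and 53 bases. A match is a description of the letters, not a shown binding site.

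Among genes with no established place in that response, Lurap1l, which encodes a protein related to the actin regulator LURAP1, had the next largest rise. It was at 20.5, 20.4, 40.2 and 34.5 TPM in C43 and between 0 and 0.78 TPM in the 12 others, with WT dDAVP cells at 0.837 ± 0.222 TPM (SD, n = 3). The difference was 4.51 ± 0.20 (SE), with no p given because Lurap1l passed the minimum of 1 TPM for testing only through C43. The minimum of 5 TPM for naming was passed only through C43 by Lurap1l, Ifi27l2a, Apol9a, Nectin3, Lgals3bp, Ifit1bl1 and Rsad2. Lypd6b, Degs2, Rab15, Ncam1, Scarb2 and Cgref1 passed it only through the other clones. The naming of all these genes thus depended on the group where they are high. C43 was the only clone in which any library reached 1 TPM. Nectin3, a cell adhesion molecule of the adherens junction, was at 17, 16.8, 23 and 21.9 TPM against 0.52 to 5.47 TPM (difference 2.66 ± 0.35 SE, adjusted p = 0.00046). The highest values outside C43 were again in C11, with means of 5.17 and 4.88 TPM. Clic3, of the chloride intracellular channel family, was at 129, 134, 198 and 212 TPM against 26.7 to 104 TPM (difference 1.70, adjusted p = 0.0239). Abcg2, an efflux transporter of drugs and urate, was at 13.6, 15.5, 20.6 and 16.2 TPM against 1.32 to 9.12 TPM (difference 1.47, adjusted p = 0.0373). Both calls were sensitive to the number of libraries: Clic3 was lost without any of the 4 C43 libraries (adjusted p 0.066 to 0.129) and Abcg2 without any of these and without 5 of the others (0.0516 to 0.175).

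Lypd6b, which encodes a membrane-anchored Ly6/uPAR domain protein, fell the most among the genes chosen. It was at 0.2, 0.5, 0.32 and 0.05 TPM in C43, whereas the others ran from 2.22 through 13.2 to 59.4 TPM, and WT dDAVP cells had 14 ± 1.12 TPM (SD, n = 3). The other clones were far apart: C1 had means of 31.8 TPM (GFP-negative) and 58.2 TPM (GFP-positive), C11 had 2.38 and 4.4 TPM, and C50 had 6.98 and 21.9 TPM. The difference of -3.44 ± 0.71 (SE) carried a wide error. Lypd6b was tested only through the other clones, and its call was lost without any of the 4 C43 libraries (adjusted p 0.0548 to 0.129).

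Degs2, a sphingolipid desaturase and hydroxylase, showed a tighter pattern. Its C43 levels were 1.04, 0.51, 1.45 and 0.32 TPM, against 10.9 to 32.6 TPM (median 16.4) in the other clones and 23.9 ± 1.52 TPM (SD, n = 3) in WT dDAVP cells. The mean of the others was 22.1 times that of C43 (difference -3.37 ± 0.20 SE; it was tested only through the other clones). Rab15, a GTPase of endosomal recycling, was at 3.06, 2.26, 4.12 and 4.18 TPM against 17.5 to 54.7 TPM, with WT dDAVP cells at 30.9 ± 4.38 TPM (difference -2.87 ± 0.18 SE, adjusted p = 7.59e-08). For both genes the C43 libraries were low in each fraction and far below every other library.

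Ncam1, the neural cell adhesion molecule, which is also expressed in the embryonic kidney, was at 3.87 and 2.49 TPM in the GFP-negative and 1.9 and 0.42 TPM in the GFP-positive C43 libraries, against 6.51 to 21.9 TPM. Its difference was -2.35 ± 0.31 (SE; adjusted p = 0.00041). Evl, an Ena/VASP protein of actin filament growth, was at 10.3, 14.1, 7.13 and 5.03 TPM against 17.6 to 49.7 TPM (difference -1.72 ± 0.17 SE, adjusted p = 1.87e-05). Tle6, a Groucho family corepressor relative, was at 23.7, 17.5, 20.1 and 11.8 TPM against 32 to 66.3 TPM (difference -1.26). Efhd1, a mitochondrial calcium-binding protein, had 4.44 to 7.45 TPM in C43 against 9.99 to 17.6 TPM (difference -1.13), and E2f6, a repressor of the E2F family, 7.52 to 11.4 TPM against 17.5 to 25.5 TPM (difference -0.99). In the same limma fit the adjusted p was 0.00201 for Tle6, 0.000434 for Efhd1 and 0.000125 for E2f6.

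The other falls were smaller or closer to the threshold. Scarb2, a lysosomal membrane protein, had 3.7 to 5.21 TPM in C43 against 6.1 to 14.8 TPM (difference -0.99). Zswim8, part of a ubiquitin ligase that degrades Argonaute proteins, had 7.77 to 11.3 against 13.2 to 28.1 TPM (difference -0.81). Upk3bl, a uroplakin relative, had 168 to 174 against 196 to 343 TPM (difference -0.63). Cgref1 had 3.13, 2.61, 3.16 and 0 TPM against 3.41 to 10.8 TPM (difference -1.40), so its separation was small and 1 library was listed at 0. Each of these calls was lost when some libraries were left out in turn: 2 for Scarb2, 4 for Zswim8, 4 for Upk3bl and 10 for Cgref1, with adjusted p of up to 0.235.

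Some genes crossed 1 TPM in C43 alone. At least 1 TPM in all 4 C43 libraries and under 1 TPM in all 12 others was met by 8 genes. Besides Lurap1l, those named by the rule were Hba-a1, Fam13a, Ica1 and Gbp3. Hba-a1, an alpha globin gene, was at 2.41, 2, 7.78 and 5.48 TPM against 0 to 0.99 TPM (difference 2.01 ± 0.23 SE; it was tested only because of its C43 level). Fam13a was at 2.02, 1.08, 4.45 and 2.67 TPM against at most 0.46 TPM, and Gbp3, another guanylate-binding protein, at 1.7, 1.23, 1.82 and 2.03 TPM against at most 0.93 TPM. Ica1, a protein of secretory granule membranes, was at 1.77, 1.4, 2.21 and 1.55 TPM in C43 and at most 0.31 TPM in the other clones. WT dDAVP cells held Ica1 at 1.66 to 2.04 TPM, so for that gene the other clones, rather than C43, stood apart from the unsorted cells. Fam13a, Ica1 and Gbp3 were below the mean of 1 TPM needed for a test.

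The converse, under 1 TPM in all C43 libraries and at least 1 TPM in all others, was met by 5 genes: Lypd6b, Osr1, Zfp182, Magee1 and Sall2. This rule uses the contrast itself, and all 5 were tested only through the other clones. Osr1, a zinc-finger factor of the early kidney lineage, was at 0.87, 0.75, 0.55 and 0.92 TPM against 1.23 to 7.51 TPM (difference -1.51 ± 0.30 SE). The zinc-finger gene Zfp182 was at 0.17 to 0.42 TPM against 1.86 to 6.19 TPM (difference -1.91 ± 0.18 SE). Magee1, of the melanoma antigen family, was at 0.02 to 0.35 TPM against 1.08 to 3.88 TPM (difference -1.55 ± 0.21 SE). Sall2, a spalt-like zinc-finger factor, was at 0.42 to 0.88 TPM against 1.06 to 3.07 TPM (difference -0.75 ± 0.15 SE). The Osr1 call was lost without any of the 4 C43 libraries (adjusted p 0.0572 to 0.0938) and the Sall2 call without 3 of them (0.0791 to 0.1).

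The falls were unevenly placed in the genome. GENCODE M21 places 12946 of the 13113 tested genes on a chromosome, and 31 of the 72 genes called lower in C43 lie on chromosome 12. That is 6.07% of the 511 tested genes of chromosome 12, against 0.549% of all genes. Of the 48 genes below the range, 18 lie there. Degs2, Evl, Rab15, E2f6 and Osr1 are among those called. Of the 511 genes, 435 (85.1%) had a difference below 0, against 53.6% of all tested genes. The share was 84.5% on chromosome 14, 77.5% on chromosome 8 and 74.3% on chromosome 9, so a high share was not particular to chromosome 12. On chromosomes 8 and 9, however, C11 and C50 stood near C43. Relative to all genes, each clone's median difference from the others on chromosome 8 was -0.14 in C43, -0.11 in C11, -0.10 in C50 and 0.34 in C1. On chromosome 9 these were -0.11, -0.13, -0.12 and 0.38. The median difference on chromosome 12 was -0.26 relative to the median of all genes. That median was -0.03 when every gene with any TPM above 0 was tested.

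Each C43 library showed this shift. Relative to all genes, the median chromosome 12 level was -0.19 and -0.21 in the GFP-negative and -0.16 and -0.21 in the GFP-positive C43 libraries, as deviations from each gene's mean over the 16 libraries, while the 12 others lay between -0.03 and 0.13. The groups did not overlap. With the tested genes of chromosome 12 cut into 12 consecutive groups along the chromosome, every group's median was below 0, from -0.44 to -0.22. The 4 genes called higher on chromosome 12 were Rsad2, Cmpk2 and Ifi27, which are on the interferon response list, and Ifi27l2a, which is not. Adjacent on the chromosome, Evl and Degs2 both fell.

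**Figure D3:**
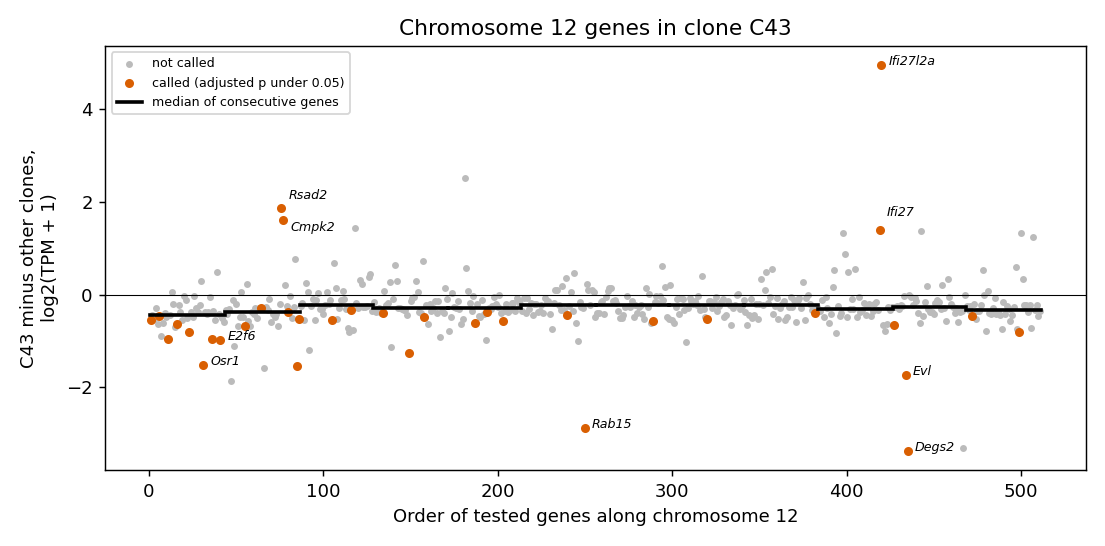
C43 minus the other clones on the log2(TPM + 1) scale for the 511 tested genes of chromosome 12, in their order along the chromosome, with called genes in orange and black lines at the medians of 12 consecutive groups of genes. Every line lies below 0, and the 4 orange points above 0 are Rsad2, Cmpk2, Ifi27 and Ifi27l2a.

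Chromosome-wide shifts were not particular to C43. With the same measure, clone C1 was at 0.34 on chromosome 8, 0.38 on chromosome 9 and -0.39 on chromosome 10, and clone C50 at -0.35 on chromosome 16. On chromosome 14, C43 stood at -0.23 and C11 at -0.26, with C1 at 0.25 and C50 at 0.29. Chromosome 12 was the one on which C43 alone lay below 0, with C1 at 0.01, C11 at 0.11 and C50 at 0.13. These 4 measures share libraries, since each clone is part of the others' comparison group. On chromosome 16, which holds Nectin3, Rtp4 and Cldn8, C43 stood at 0.17, and 13 of 412 tested genes were called higher (3.16% against 0.862% of all genes) and 0 lower (against 0.549%). DNA copy number was not measured, and its part in these shifts was not tested.

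**Figure D4:**
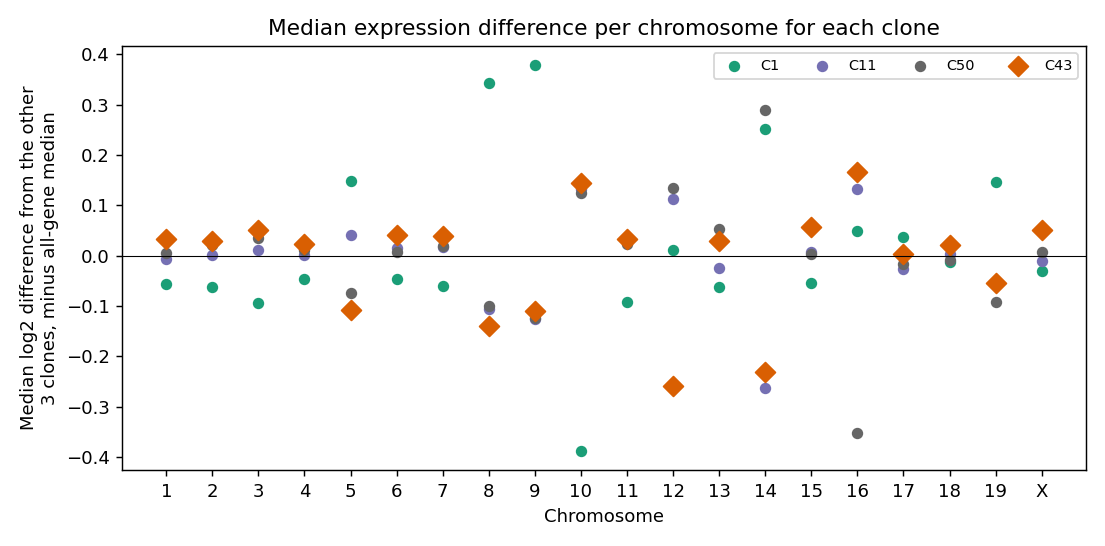
Median log2(TPM + 1) difference of each clone from the other 3 clones, minus the median over all genes, for each chromosome. C43 (orange diamonds) is lowest on chromosome 12 at -0.26; C1 is at 0.38 on chromosome 9 and C50 at -0.35 on chromosome 16.

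Fitted apart, GFP-negative libraries gave 10 calls for C43, 8 of them among the 185, and GFP-positive libraries 66, 48 of them among the 185. The 185 genes had a median absolute difference of 0.83 in the GFP-negative and 1.14 in the GFP-positive libraries. All had the same sign in both, which calling them on both fractions together largely fixes. An interaction of C43 with fraction was called for 1 gene (0.00763%), a provisional small-RNA entry, and 341 genes passed an unadjusted p under 0.05. Ncam1 differed by -1.60 in the GFP-negative and -3.10 in the GFP-positive libraries, but its interaction did not pass (adjusted p = 1). With 2 C43 libraries per fraction, small interactions would be missed.

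**Figure D5:**
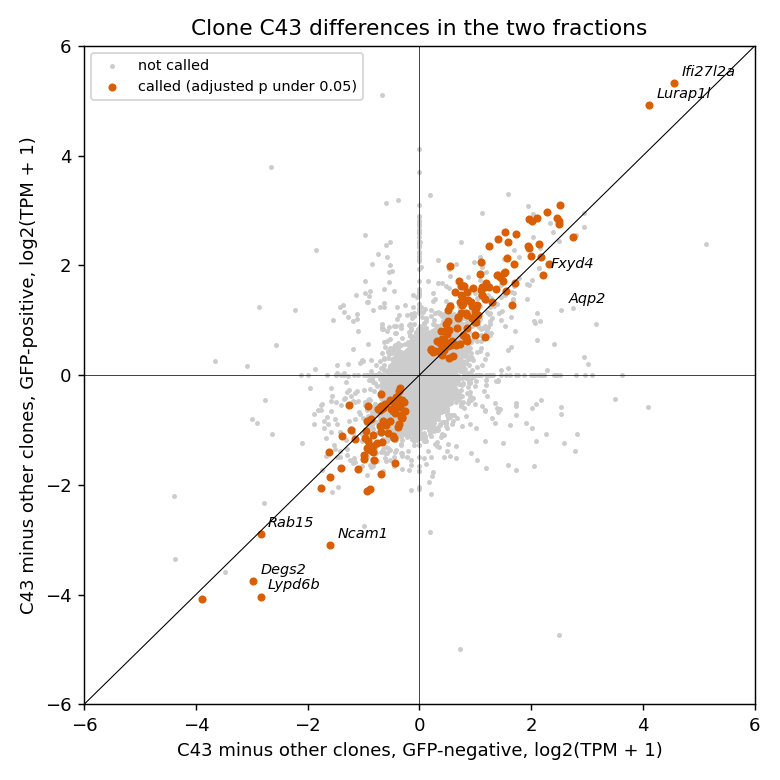
C43 minus the other clones in the GFP-negative (horizontal) and GFP-positive (vertical) libraries on the log2(TPM + 1) scale, 1 point per tested gene, with the 185 called genes in orange and the line of equal differences. All orange points lie in the lower left or upper right quadrant, with Ifi27l2a and Lurap1l at the upper end and Degs2 and Lypd6b at the lower end.

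Set against each clone in turn, C43 differed from C1 in 3374 genes (25.7%), from C50 in 1125 (8.58%) and from C11 in 619 (4.72%). These fits use only the spread between replicate libraries. In 184 genes (1.4%) C43 differed from all 3 clones in the same direction, 115 higher (0.877%) and 69 lower (0.526%), and 135 of the 185 genes called above were among them. Of the 115, 14 had a mean under 1 TPM in the other clones, Lurap1l among them, and were tested only through C43; of the 69, 8 had a C43 mean under 1 TPM, Degs2 among them. Ifi27l2a, Lgals9 and Rab15 were also in this group. The 184 became 109 to 122 without any 1 C11 library, 118 without GFP-negative C43 replicate 1, and 549 and 368 without GFP-negative C50 replicates 1 and 2. Pde4c was not, with an adjusted p of 0.0583 against C1, nor was Cmpk2, with 0.0634 against C11. Over all tested genes, C43 libraries correlated most with those of C11 (Pearson r across genes 0.959 to 0.972 for GFP-negative and 0.956 to 0.964 for GFP-positive libraries). Replicate C43 libraries correlated at 0.967 and 0.964; genes are not independent, and these values only describe the libraries.

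Aqp2, the vasopressin-regulated water channel, and the reporter itself were not called against the other clones together. Aqp2 was at 1568 and 1680 TPM in the GFP-negative and 6649 and 7254 TPM in the GFP-positive C43 libraries, with the 12 others from 66.5 to 4894 TPM. Within each fraction the C43 libraries were the highest, but across fractions the ranges overlapped. The difference was 1.86 ± 0.64 (SE; limma adjusted p = 0.195), and a two-sided exact permutation of libraries within fractions gave p = 0.014 (0.0281 adjusted over the 2 genes; the smallest value possible was 0.00128). This permutation treats the libraries of 1 clone as exchangeable with those of the other clones. Its p therefore ignores the clone and is no test of 1 clone against 3. The limma call depended on C50: without GFP-negative C50 replicate 1 the difference was 2.06 with an adjusted p of 0.0473. Against each clone in turn, with only the spread between replicate libraries as error, Aqp2 was higher in C43 in all 3 contrasts (limma adjusted p 8.85e-11 against C1, 1.19e-08 against C11 and 0.000464 against C50). GFP was at 17.6 and 15.2 TPM in the GFP-negative C43 libraries, above the 5.31 to 13.3 TPM of the other clones. In the GFP-positive C43 libraries it was at 1065 and 1164 TPM, below the 1254 to 1567 TPM of the others. The differences were 0.67 and -0.30, and the interaction with fraction was not called. The pooled difference of 0.18 ± 0.19 (SE) averages these opposite directions (limma adjusted p = 0.725, exact permutation p = 0.388).

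Of 13 tested principal cell markers, 1 was called higher (7.69% against 0.862% of all genes) and 0 lower in C43. It was Fxyd4, a regulator of the sodium pump in the collecting duct, at 717 and 836 TPM in the GFP-negative and 2255 and 2624 TPM in the GFP-positive C43 libraries, against 107 to 994 TPM (difference 2.02 ± 0.30 SE, adjusted p = 0.0013). Its levels followed the fraction in every clone, and the C43 values were the highest within each fraction. Cldn8, the tight junction claudin of the collecting duct, was at 409, 458, 1002 and 799 TPM against 74 to 500 TPM (difference 1.70 ± 0.41 SE, adjusted p = 0.0488), a call lost when any of 11 libraries was left out (0.0631 to 0.191). It was the 1 called gene of 27 tested claudins and junction genes (3.7% against 0.862% higher over all genes). In the V2 receptor and cAMP list, 1 of 32 tested genes was called, lower (against 0.549% of all genes), and at an unadjusted p under 0.05 there were 2 higher and 5 lower (6.25% and 15.6%, against 6.48% and 6.53% of all genes). The called gene was Pde4c, a cyclic AMP phosphodiesterase, at 24.4, 27.9, 37.4 and 32.2 TPM against 27.5 to 77.9 TPM (difference -0.74 ± 0.17 SE, adjusted p = 0.0373), and 11 of the libraries, left out in turn, ended that call (0.0501 to 0.208). The median difference was -0.00003 for the principal cell list and -0.05 for the cAMP list, near the -0.02 of all genes. At an unadjusted p under 0.05, 3 principal cell markers were higher (23.1%) and 1 lower (7.69%), against 6.48% and 6.53% of all genes.

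Glutathione and NRF2 genes gave 2 calls higher and 0 lower among 26 tested (7.69% against 0.862%). With an unadjusted p under 0.05, 8 were higher (30.8% against 6.48% of all genes) and 0 lower. Of the 26 differences, 19 were above 0 (73.1% against 46.4%). Gstt3, a theta class glutathione transferase, was at 281, 296, 671 and 683 TPM against 90.7 to 380 TPM (difference 1.12 ± 0.22 SE, adjusted p = 0.0149). Gsto1, an omega class transferase, was at 1018.5 to 1438 TPM against 578 to 1018.4 TPM (difference 0.61 ± 0.14 SE, adjusted p = 0.0423), so its ranges all but touched. The calls were lost without 3 C43 libraries for Gstt3 and without any of 10 libraries for Gsto1. Among imprinted genes, 1 of 16 tested was called higher (6.25% against 0.862% of all genes): Airn, the noncoding RNA antisense to Igf2r, at 7.35, 4.4, 8.15 and 6.84 TPM in C43. The other clones spanned 0 to 3.9 TPM, with C1 and C11 means of at most 0.5 TPM and C50 means of 2.15 and 3.1 TPM (difference 2.16 ± 0.42 SE, adjusted p = 0.0145, lost without 3 of the C43 libraries). WT dDAVP cells were at 3.17 ± 1.05 TPM (SD, n = 3). Strand was not stated for the counting, so reads of overlapping genes cannot be told apart. Col4a4, a basement membrane collagen chain, was the 1 called, lower, of 31 tested matrix genes (against 0.549% of all genes), at 6.77 and 8.01 TPM in the GFP-negative and 1.82 and 1.71 TPM in the GFP-positive C43 libraries against 5.15 to 13 TPM (difference -1.02 ± 0.21 SE, adjusted p = 0.0205; 0.141 and 0.146 without either GFP-positive C43 library). At an unadjusted p under 0.05, 9 matrix genes were lower (29.0% against 6.53% of all genes) and 0 higher; 6 of the 31 differences were above 0 (19.4% against 46.4%), and their median was -0.31. H2-T23, a nonclassical MHC class I gene, was the 1 called, higher, of 12 tested MHC class I genes (8.33% against 0.862% of all genes), at 55.6, 55.6, 93.7 and 94.4 TPM against 27.6 to 55.4 TPM (difference 0.93 ± 0.18 SE, adjusted p = 0.0132; 0.0938 and 0.0861 without either GFP-positive C43 library).

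Several lists held no call in limma, against 1.41% called over all genes; at an unadjusted p under 0.05, 6.48% of all genes were higher and 6.53% lower. For S phase genes, 0 of 26 were called, with 0 at an unadjusted p under 0.05 and a median difference of -0.21. Only 2 of the 26 differences were above 0 (7.69% against 46.4% of all genes). For G2 and M phase genes, 0 of 25 were called, again with 0 at an unadjusted p under 0.05, and the median was -0.31. Here 1 of the 25 differences was above 0 (4% against 46.4% of all genes). Of lists with genes lower at that p and 0 higher, NF-kB and chemokine genes had 2 of 21, mesenchymal genes 5 of 13, Wnt pathway genes 3 of 18 and TGF-beta and BMP genes 5 of 26. Of those with genes higher and 0 lower, Hox genes had 1 of 22, epithelial keratins 3 of 8 and intercalated cell markers 1 of 7. Glycolysis and hypoxia genes had 1 higher and 1 lower of 25, and cholesterol synthesis genes 0 of 24 in either direction.

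Markers of other cell types were measured too. Intercalated cell markers summed to 321 to 674 TPM in C43 and 228 to 540 TPM in the other clones, thick limb and distal tubule markers to 39.8 to 80.9 and 59 to 122 TPM, and proximal tubule markers to 23.7 to 33.9 and 10.6 to 41 TPM. Fibroblast markers summed to 0.14 to 3.9 TPM in C43 and 0.01 to 2.52 TPM in the other clones, and endothelial markers to 0.08 to 3.39 and 0.06 to 3.48 TPM. Immune cell markers, which bear on the interferon list, summed to 21.5 to 31.6 TPM in C43 and 12.1 to 27.7 TPM elsewhere; 5 of the 8 were under 1 TPM in all 16 libraries and 0 of the 2 tested were called in limma. Both tested immune markers had differences above 0 (median 0.46, highest 0.80), 1 of them with an unadjusted p under 0.05, and their part in the interferon list's difference was not tested. Epithelial identity genes summed to 15221 to 20209 TPM in C43 and 15559 to 18697 TPM elsewhere. The libraries fell into 8 with 17177 to 19556 and 8 with 23135 to 30855 genes above 0 TPM, with 2 C43 libraries in each set and 1 per fraction. Within the 8 libraries with fewer genes, 5 genes were called for C43, and within the 8 with more, 25. The interferon list had a median difference of 0.93 in the former and 0.97 in the latter. Library C50 GFP-negative replicate 1 stood apart, with an all-gene median of -0.30; without it 924 genes were called for C43, among them all 185, and 15 members of the interferon list.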

How the data were processed

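RNA from 16 reporter clone libraries (8 groups of 2) and 6 WT libraries was made into cDNA with SMART-Seq HT and tagmented with Nextera XT, per the labels' protocols. STAR and RSEM are named in the submitters' processing notes; versions and genome build are not given in the sources used here. The authors deposited 1 table of TPM per gene with 55415 lines. Lines that share a symbol (980 lines, 79 symbols) were summed, leaving 54514 entries. Read depth is unknown, so no counting intervals are given. The number of libraries limits precision.

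Log2(TPM + 1) values of the 13113 genes with a mean of at least 1 TPM were fitted in limma 3.58.1 (R 4.3.3; mean-variance trend, two-sided, Benjamini-Hochberg over all tested genes, adjusted p under 0.05 called). The fit had C43 and GFP fraction as terms, so differences among the other clones stay in the error. Further fits gave the interaction with fraction and C43 against each clone. Scripts were tested on simulated data. Members and lists were chosen with earlier results of these data known.

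Named genes are Aqp2 and GFP, the 12 largest rises and falls among called genes beyond the range with a mean of at least 5 TPM, up to 5 genes on and 5 off at 1 TPM, and up to 4 called members per list, passing over provisional symbols. Chromosomes were taken from GENCODE M21 by gene identifier. No library pair held identical values. Alternatives covered the pseudocount (0.1), filters, scaling, moderation, a replicate block, fractions apart, and leaving out each library or clone. The values of 1 list member are not reported here.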

Additional observations from a re-analysis of the deposited data

Results flagged for a closer look

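The provisional gene Gm24278 differed between the fractions in its C43 difference, by 4.12 ± 0.34 (log2 scale, SE; limma interaction, adjusted p = 3.93e-05). It was at 22.3 and 12.01 TPM in the 2 GFP-positive C43 libraries and is listed at 0 in the GFP-negative C43 libraries and in all 12 libraries of the other clones. It was above 0 in 2 of 2 GFP-positive C43 libraries and at 0 in the other 14. Its mean over the 16 libraries, 2.14 TPM, passed the minimum of 1 TPM only through those 2 libraries, so it had to differ and the p-value is no support. It was not tested with a minimum mean of 5 TPM.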

How the results depend on the processing

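Aqp2, GFP, the chromosome 12 median and the 40 named genes, each with 31 to 33 of the 37 alternatives, did not change sign. The fractions taken apart are not among these, and there GFP differed by 0.67 in the GFP-negative and -0.30 in the GFP-positive libraries. The all-gene median of -0.02 did, to 0.022 with any TPM above 0, 0.012 without GFP-positive C43 replicate 2, 0.0089 without clone C11 and 0.048 in GFP-negative libraries alone. With clones averaged, 1 against 3, limma called 0 genes for C43 (339 at an unadjusted p under 0.05), 0 beyond the range and 0 interferon list members (9 at an unadjusted p under 0.05); Ifi27l2a then had an adjusted p of 0.145. This and the splits by genes detected were chosen after seeing the data. Counts below are calls, then calls beyond the range, then interferon members, then interactions. A minimum mean of 5 TPM gave 117, 52, 5 and 0 (173 interactions at an unadjusted p under 0.05); any TPM above 0 gave 105 calls and 14 interactions, and moved the chromosome 12 median to -0.0305. Clone means per fraction gave 21, 21, 1 and 26. The 8 libraries with fewer genes detected gave 5, 5, 0 (18 at an unadjusted p under 0.05) and 20, and the 8 with more gave 25, 24, 2 and 90. Without clone C11 the counts were 336, 203, 17 and 3. Without clone C50 there were 1029 calls (36.7% higher, against 61.1%) and 427 beyond the range, and Aqp2 differed by 2.55 (adjusted p = 0.00788). Without clone C1 there were 4 interactions. A log2 difference of at least 1 left 91 calls, the range taken within each fraction 160 genes, GFP-negative libraries alone 10 calls and GFP-positive alone 66. Of the 40 named calls, a pseudocount of 0.1 ended 5, Airn and Oas1g among them (limma adjusted p 0.0722 and 0.0662). Testing any TPM above 0 ended 10, among them Clic3, Upk3bl and Lypd6b (limma adjusted p 0.0669, 0.0596 and 0.0596).

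Leaving out 1 library at a time gave 54 to 924 calls (lowest without GFP-positive C43 replicate 1, highest without GFP-negative C50 replicate 1), 41 to 268 beyond the range, 6 to 15 interferon members, 1 to 24 interactions and 109 to 549 genes called against all 3 clones. Aqp2 differed by 1.65 to 2.07 and GFP by 0.0172 to 0.339. Of the 40 named genes, 20 were tested and called whichever library was left out, 4 of them (Lurap1l, Degs2, Magee1 and Zfp182) tested only through the group where they are high. Hba-a1 was not tested without GFP-positive C43 replicate 1, and 14 were lost only without C43 libraries. Replicate numbers were not taken to pair the libraries: deviations of same-numbered libraries of C43 and the other clones correlated at -0.189 to 0.149. Those of the fractions correlated at 0.203 in C43, 0.0544 in C1, 0.0151 in C11 and 0.0825 in C50, and the labels do not say that same-numbered fractions came from 1 culture. The replicate block gave 146 calls with the number as a covariate, and 84 calls with 58 beyond the range with clone and number as a random block, where Cldn8, Abcg2, Gsto1, Pde4c, Sall2, Zswim8, Col4a4 and Cgref1 were not called (adjusted p 0.0719 to 0.121). TPM keep no depth, so what depth limits is unknown.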

Other observations

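Some genes called higher in C43 were neighbours; the genes named here were chosen after their values were seen. With at most 3 other tested genes between called neighbours, 34 of the 113 higher genes fell in 14 runs, 6 of them with no other tested gene between. How many runs chance would give was not tested. There were 2 lower runs, both on chromosome 12. The longest run held Ly6e, Ly6a, Ly6g2, Gm10238 and Ly6f on chromosome 15, a cluster of small surface proteins anchored by lipid; Ly6g2, Gm10238 and Ly6f reached the minimum of 1 TPM only through C43. Ly6e was at 254, 275, 333 and 422 TPM in C43 against 113 to 169 TPM in the other clones (difference 1.16 ± 0.10 SE, adjusted p = 3.88e-06). Ly6a was at 8.46, 7.99, 11.1 and 16.6 TPM against 0.99 to 3.94 TPM (difference 1.94 ± 0.24 SE, adjusted p = 0.000226). Oas2, Oas1f, Oas1g and Oas1a formed a run of 4 on chromosome 5, and Mb, Apol9a and Apol9b a run of 3 on chromosome 15. Reads of such close relatives may have been shared among them.

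Some other called genes lie outside the lists. Il15, a cytokine that supports natural killer cells, was at 5.36, 7.01, 12.2 and 24.2 TPM against 0.84 to 4.92 TPM (difference 1.79 ± 0.31 SE, adjusted p = 0.00655). H60c, a ligand of the receptor NKG2D, was at 9.5, 7.25, 9.27 and 10.8 TPM against 0.47 to 3.78 TPM (difference 2.08 ± 0.32 SE, adjusted p = 0.00201). Panx1, a membrane channel for ATP release, was at 7.35, 6.01, 4.14 and 7.72 TPM against 0 to 1.73 TPM in the other clones (difference 2.17 ± 0.28 SE; it reached the minimum of 1 TPM only through C43), while WT dDAVP cells held 4.98 ± 1.76 TPM (SD, n = 3). Ier2, an immediate early gene, was at 2422 to 2762 TPM against 2961 to 5174 TPM, a difference of -0.56 ± 0.09 (SE; adjusted p = 0.00413).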
